A study of Mus musculus with 2 samples.

Results

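The 10 genes described here act on extracellular ATP and on the adenosine made from it. They are the surface enzymes Nt5e, Entpd1, Entpd2 and Enpp1, the 4 adenosine receptors Adora1, Adora2a, Adora2b and Adora3, and the 2 enzymes that use up adenosine, Ada and Adk. They were chosen by name, for their place in this route, from the 21983 gene entries of the deposited table, and all 10 had an entry. RNA came from 14837, cells of a pancreatic ductal adenocarcinoma (PDAC) from C57BL/6 mice, which had spent 48 h in conditioned medium, that is, medium in which other cells have already grown. The labels describe 2 libraries, 1 from 14837 cells in medium from cancer-associated fibroblasts (CAFs) and 1 from 14837 cells in medium from 14837 cells. Of the table's value columns, 1 carried a name that fits the CAF-medium library, and the other a name that fits no library, so the media were not compared. Every value below is a level within the CAF-medium library, from 1 culture with no replicate, and shows neither a response to the medium nor the spread between cultures.

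Cells under stress or dying release ATP, which acts on P2X and P2Y receptors of nearby cells. Enzymes on the cell surface cut it down to AMP, and CD73, the product of Nt5e, turns AMP into adenosine. Adenosine then binds its own receptors, of which A1 and A3 lower cyclic AMP (cAMP) and both A2 receptors raise it, or it enters cells through nucleoside transporters and is phosphorylated by adenosine kinase or deaminated to inosine. In tumours this route is best known for the damping of T cells through the product of Adora2a. The series' title concerns nucleosides secreted by the tumour's surroundings.

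The library held 21269197 counts. Entries with 10 counts or more made up 52.6% of the table, and entries at 0 made up 36.6%. Levels are given as counts per 1000000 counts of the library (CPM), with exact Poisson 95% intervals that cover counting error only. The median gene with at least 10 counts stood at 37.9 CPM. Since 52.6% of entries reached 10 counts, most of the table lay below that level. Near it, Adora2a at 41.7 CPM ranked 5507 of all 21983 entries, and Adk at 36.3 CPM ranked 5911. The median gene falls between these ranks, so it is not the middle of the whole table. Numbers of genes above the median gene, given below, are out of all genes listed. Because longer genes collect more counts, genes are compared with each other per kilobase of exon, and on that scale the median gene stood at 8.14 CPM per kilobase. For an entry at 0 a set limit of 3 counts, or 0.141 CPM, is given, under the upper end of the exact interval at 0.173 CPM. The respiratory genes Atp5a1 and Uqcrc1, which cells in general use, were also listed at 0, so such an entry is not described as unexpressed. Keratins of ductal epithelium were high, with Krt18, Krt8 and Krt7 at 1819, 797 and 550.2 CPM (23.5% of the transcript windows of Krt8 were also found in other genes), and 8 of 10 ductal markers had at least 10 counts. The other 2, Epcam and Cldn4, had 2 and 0 counts.

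The 10 genes together had 7169 counts, 0.0337% of the library. Among them 8 reached 10 counts, the remaining 2 were at 0, and 3 exceeded the median gene in CPM. The median of the 8 was 30.4 CPM, beside 37.9 CPM for all genes that reached 10 counts, and the median over all 10 was 15.7 CPM. Per kilobase, 2 of the 10, Nt5e and Adora2a, exceeded the median gene. In bulk RNA, fewer cells that express a gene and less RNA of it per cell cannot be told apart.

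**Figure D1:**
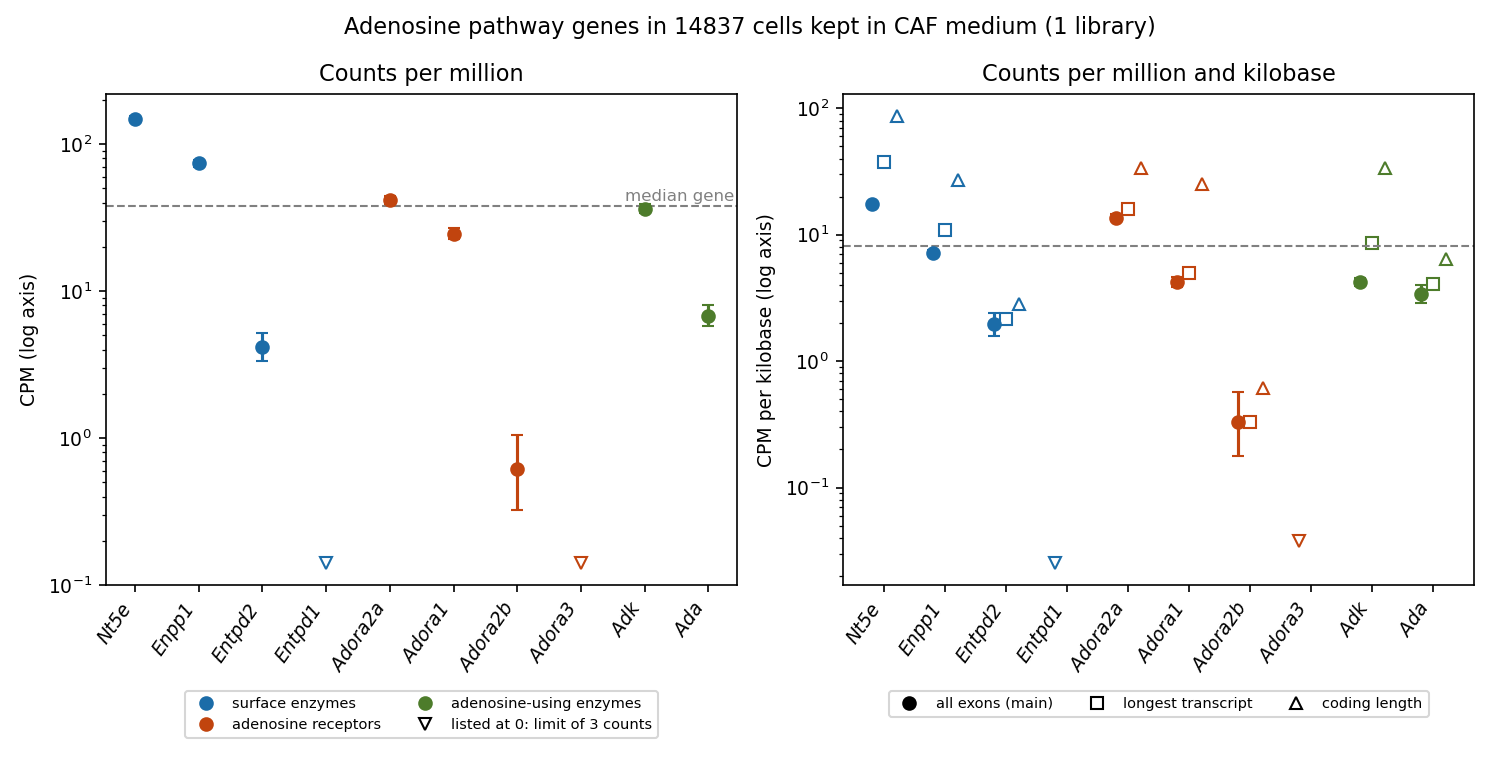
Level of each gene in the CAF-medium library, in CPM on the left and in CPM per kilobase on the right, both on log axes. Filled points carry exact Poisson 95% intervals, open squares and triangles on the right use 2 other gene lengths, open downward triangles mark the limit of 3 counts for Entpd1 and Adora3, and dashed lines mark the median gene. Nt5e is highest on both scales, at 149 CPM and 17.3 CPM per kilobase, and Adora2b is the lowest gene with any counts, at 0.611 CPM.

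Among the surface enzymes, Nt5e, for the last step from AMP to adenosine, had the most counts, followed by Enpp1, and the CD39 family members Entpd2 and Entpd1 had few or none. Nt5e (ENSMUSG00000032420.8, chromosome 9, 88327197 to 88372092, plus strand, mm10) had 3172 counts, or 149 CPM (144 to 154), which was 3.94 times the median gene and rank 1785 of all entries. Per kilobase it stood at 17.3 CPM (16.7 to 18.0). It held 65.4% of the summed counts per kilobase of the 4 surface enzymes.

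Enpp1 encodes a surface enzyme that splits ATP straight to AMP and pyrophosphate and also destroys the immune messenger cGAMP. It lies on chromosome 10, 24637914 to 24712159, minus strand, and had 1570 counts, or 73.8 CPM (70.2 to 77.6). At 7.20 CPM per kilobase (6.84 to 7.56) it was just under the median gene. Nt5e had 2.41 times the counts per kilobase of Enpp1 (exact binomial 95% interval 2.27 to 2.56). With the longest transcript in place of all exons the ratio was 3.43, and with coding length 3.18, so Nt5e was the higher of the pair under all 3 lengths.

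Entpd1 encodes CD39, the ectonucleotidase that takes ATP and ADP down to AMP on leukocytes and endothelium. It lies on chromosome 19, 40612366 to 40741602, plus strand, and was listed at 0. With 3 counts put in place of that 0, Nt5e had 686 times the counts per kilobase of Entpd1. Because widely used genes were also listed at 0, this value is not a bound on the true ratio. No window of the Entpd1 transcript was found in transcripts of other genes, and no exon of another gene overlapped it. Entpd2, a related enzyme that mainly takes ATP to ADP, had 89 counts, or 4.18 CPM (3.36 to 5.15), on chromosome 2, 25395874 to 25401321, plus strand. That value is uncertain, since 28.8% of its exonic bases lie in exons of Npdc1 on the same strand, and Npdc1 had 1676 counts. Nt5e had 8.82 times the counts per kilobase of Entpd2 (7.14 to 11.0), or 17.3 times by longest transcript and 30.6 times by coding length. Of the 4 enzymes, then, Nt5e and Enpp1 carried nearly all the counts, and the CD39 family members had 89 and 0.

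Most of the leukocyte and endothelial genes with which CD39 is usually found had few counts or none. Any link to the 0 of Entpd1 was not tested. Of 12 leukocyte markers, 2 reached 10 counts and 8 were at 0, and the list summed to 7.19 CPM. Cd68 accounted for 121 of its 153 counts and Foxp3 for 30, and 31.5% of the exonic bases of Foxp3 lie in exons of other genes. The pan-leukocyte gene Ptprc had 1 count. None of 7 endothelial markers reached 10 counts, and they summed to 0.658 CPM, with Cdh5, Kdr and Cldn5 at 0. Of 10 fibroblast markers, 3 had at least 10 counts. Pdgfra had 727 counts and made up 92.4% of that list, while Col1a1 and Fap had 29 and 26, and Col1a2, Col3a1, Dcn, Lum and Thy1 were listed at 0.

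The other genes, listed as further ectonucleotidases and surface phosphatases, were mostly low. Of 19 such genes in the table, 11 reached 10 counts, 6 were at 0 and 2 exceeded the median gene. The median of the 11 was 7.05 CPM. Cant1, a nucleotidase of the endoplasmic reticulum and Golgi, led at 83.7 CPM (79.8 to 87.7) and 19.2 CPM per kilobase. That was above Nt5e, at 17.3, but by longest transcript Cant1 stood at 20.0 and Nt5e at 37.3, and by coding length at 63.4 and 86.3. Enpp4, a relative of Enpp1, stood at 38.7 CPM, the phosphatase family member Pald1 at 30.5 CPM and Entpd6 at 20.8 CPM. Tissue alkaline phosphatase, Alpl, another surface route from AMP to adenosine, had 2 counts.

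Among the adenosine receptors, Adora2a and Adora1 made up nearly all of the RNA, and Adora2b and Adora3 were at or near 0. Adora2a encodes an A2 receptor of high affinity, which couples to Gs and raises cAMP. It lies on chromosome 10, 75316877 to 75334784, plus strand, and had 886 counts, or 41.7 CPM (39.0 to 44.5). At 13.6 CPM per kilobase (12.7 to 14.5), 1.67 times the median gene, it ranked next after Nt5e among the 10 genes.

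Adora1 encodes the A1 receptor, which couples to Gi and lowers cAMP. It lies on chromosome 1, 134199223 to 134235431, minus strand, and had 522 counts, or 24.5 CPM (22.5 to 26.7). Exons of Mybph, on the opposite strand, overlap 20.1% of its exonic bases, and Mybph was listed at 0. Per kilobase Adora1 stood at 4.24 CPM (3.89 to 4.62), below the median gene. Adora2a had 3.21 times the counts per kilobase of Adora1 (2.87 to 3.58). By longest transcript that ratio was 3.25, but by coding length it was 1.35 (1.21 to 1.51), so its size depends on the length used while its direction did not.

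Adora2b encodes the A2B receptor, which needs more adenosine than the other receptors and couples to Gs and Gq. On the plus strand of chromosome 11, at 62248984 to 62266453, it had 13 counts, or 0.611 CPM (0.325 to 1.05). Of all genes with at least 10 counts, 2.25% were at or below it. Adora2a had 41.1 times its counts per kilobase (23.9 to 77.4) and Adora1 12.8 times (7.42 to 24.2). Adora3 encodes the Gi-coupled A3 receptor, lies on chromosome 3, 105870858 to 105908926, plus strand, and was listed at 0, as was Tmigd3, whose exons overlap 20.9% of its exonic bases. As shares of the 4 receptors' counts per kilobase, Adora2a held 74.8%, Adora1 23.3% and Adora2b 1.82%. By coding length the first 2 shares were 56.8% and 42.1%.

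The sequences before the start sites are shown for Adora1, Adora2b and Adora3, since these related receptor genes had 522, 13 and 0 counts, and for the surface enzymes Enpp1 and Entpd1, at 1570 and 0. RefSeq promoter windows (GRCm38.p6) matched 9 of the 10 genes, all but Adora2a. Each run below is the 250 bases before an annotated start, 5′ to 3′ on the gene's strand, at chr1:134235458-134235707 (minus) for Adora1, chr11:62248734-62248983 (plus) for Adora2b, chr3:105904171-105904420 (plus) for Adora3, chr10:24712160-24712409 (minus) for Enpp1 and chr19:40659520-40659769 (plus) for Entpd1. The Entpd1 window belongs to the downstream one of its annotated starts. The Adora3 window lies inside the span of its GENCODE gene model, 105870858 to 105908926, and so not before the first start of that model. Capitals mark 3 motifs searched on both strands: ACGTG, the core of the hypoxia response element, TGACG, a site for cAMP-responsive factors, and GGGCGG, the GC box of SP1. ACGTG and TGACG can overlap, since both hold ACG.
Adora1: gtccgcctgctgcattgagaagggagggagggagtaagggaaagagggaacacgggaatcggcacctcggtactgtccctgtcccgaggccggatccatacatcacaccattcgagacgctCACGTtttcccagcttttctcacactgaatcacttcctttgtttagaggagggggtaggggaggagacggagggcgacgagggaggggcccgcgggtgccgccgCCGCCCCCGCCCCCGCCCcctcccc
Adora2b: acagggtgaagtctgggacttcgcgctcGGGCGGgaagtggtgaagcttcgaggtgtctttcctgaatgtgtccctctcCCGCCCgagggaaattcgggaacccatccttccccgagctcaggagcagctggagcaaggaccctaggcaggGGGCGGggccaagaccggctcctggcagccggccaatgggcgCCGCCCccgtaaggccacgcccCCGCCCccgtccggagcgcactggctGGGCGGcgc
Adora3: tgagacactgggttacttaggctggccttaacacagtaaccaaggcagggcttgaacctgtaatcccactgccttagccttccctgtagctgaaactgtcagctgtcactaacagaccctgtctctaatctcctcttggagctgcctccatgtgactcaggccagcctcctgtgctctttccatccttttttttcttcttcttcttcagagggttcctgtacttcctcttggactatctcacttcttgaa
Enpp1: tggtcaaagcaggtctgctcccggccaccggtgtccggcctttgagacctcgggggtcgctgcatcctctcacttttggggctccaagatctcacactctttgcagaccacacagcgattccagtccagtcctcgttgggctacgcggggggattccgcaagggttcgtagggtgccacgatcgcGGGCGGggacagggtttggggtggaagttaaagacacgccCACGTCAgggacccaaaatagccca
Entpd1: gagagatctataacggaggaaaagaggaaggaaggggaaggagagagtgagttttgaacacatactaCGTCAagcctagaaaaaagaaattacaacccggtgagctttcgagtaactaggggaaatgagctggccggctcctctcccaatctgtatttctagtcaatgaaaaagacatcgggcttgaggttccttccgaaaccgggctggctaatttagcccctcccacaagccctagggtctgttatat

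The 2 receptor genes at the bottom of the range had quite different windows. Adora2b had 22 CpG dinucleotides and 6 GC boxes, and Adora3 had 0 CpG and none of the 3 motifs. The Adora1 window shown had 19 CpG, 3 GC boxes and 1 ACGTG, and its other window, exonic and not shown, had 18 CpG and none of the motifs. Enpp1 had 17 CpG and 1 of each motif, with its ACGTG and TGACG overlapping, and the Entpd1 window shown had 8 CpG and 1 TGACG. The upstream Entpd1 window, partly exonic and not shown, had 18 CpG and 1 TGACG, and the window of Entpd2 had 9 CpG, 2 ACGTG and 2 GC boxes. For Ada it had 14 CpG and 1 GC box, and for Adk the 2 windows had 15 and 24 CpG and 2 and 3 GC boxes, the first with 1 TGACG. Nt5e, whose window lies within an exon of another annotated transcript and is not shown, had 21 CpG and 4 GC boxes. Over 32841 windows of the same length, the median was 6 CpG and 7.86% had no CpG. A GC box stood in 32.7% of them, ACGTG in 16.6% and TGACG in 17.8%. A match describes these letters and is no evidence that a factor binds.

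Both enzymes that use up adenosine were present, with Adk above Ada by a factor that depended on the gene length used. Adk encodes adenosine kinase, which returns adenosine to AMP inside the cell. On the plus strand of chromosome 14, at 21052574 to 21448569, it had 772 counts, or 36.3 CPM (33.8 to 38.9), close to the median gene. Ada encodes adenosine deaminase, which makes inosine. The gene, on chromosome 2, 163726584 to 163750239, minus strand, had 145 counts, or 6.82 CPM (5.75 to 8.02). Adk had 5.32 times the counts of Ada (4.45 to 6.40). Per kilobase of all exons the ratio was 1.25 (1.05 to 1.50), by longest transcript 2.12 (1.77 to 2.55) and by coding length 5.19 (4.34 to 6.24). The exons of Adk add up to 8526 bases over 10 annotated transcripts, beside a coding length of 1083, so the length used changes its level by a large factor. Adk was the higher of the pair under all 3 lengths. Dpp4, the surface protein that holds extracellular adenosine deaminase on human cells, was listed at 0.

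**Figure D2:**
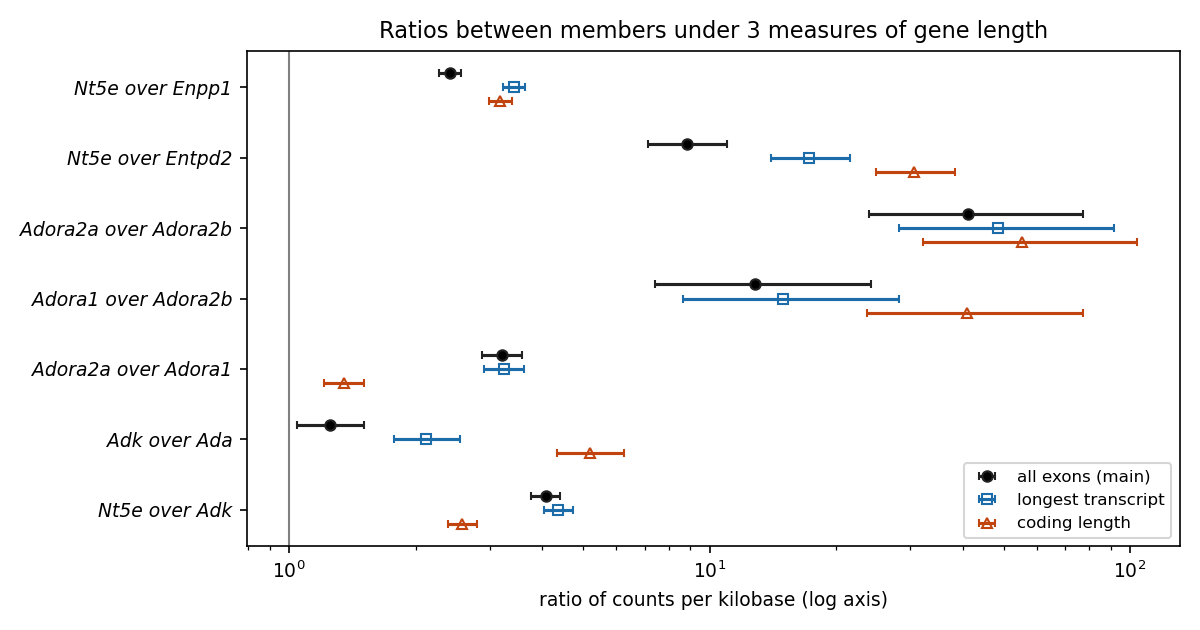
Ratio of counts per kilobase for 7 pairs of genes, on a log axis, with exact binomial 95% intervals. Black points use all exons, blue squares the longest transcript and red triangles the coding length. Every ratio stays above 1, while Adk over Ada runs from 1.25 to 5.19 and Nt5e over Entpd2 from 8.82 to 30.6.

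Placed in order per kilobase of exon, the genes ran from Nt5e at 17.3 CPM through Adora2a at 13.6, Enpp1 at 7.20, Adk at 4.26, Adora1 at 4.24, Ada at 3.41 and Entpd2 at 1.97 to Adora2b at 0.331. The counting intervals of Adk and Adora1 overlapped, and that of Ada (2.87 to 4.01) reached the lower ends of both. The other neighbours in this order had intervals that did not overlap. By longest transcript the order was the same. By coding length Adk, at 33.5, moved above Enpp1, at 27.2, and next to Adora2a, at 33.9.

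**Figure D3:**
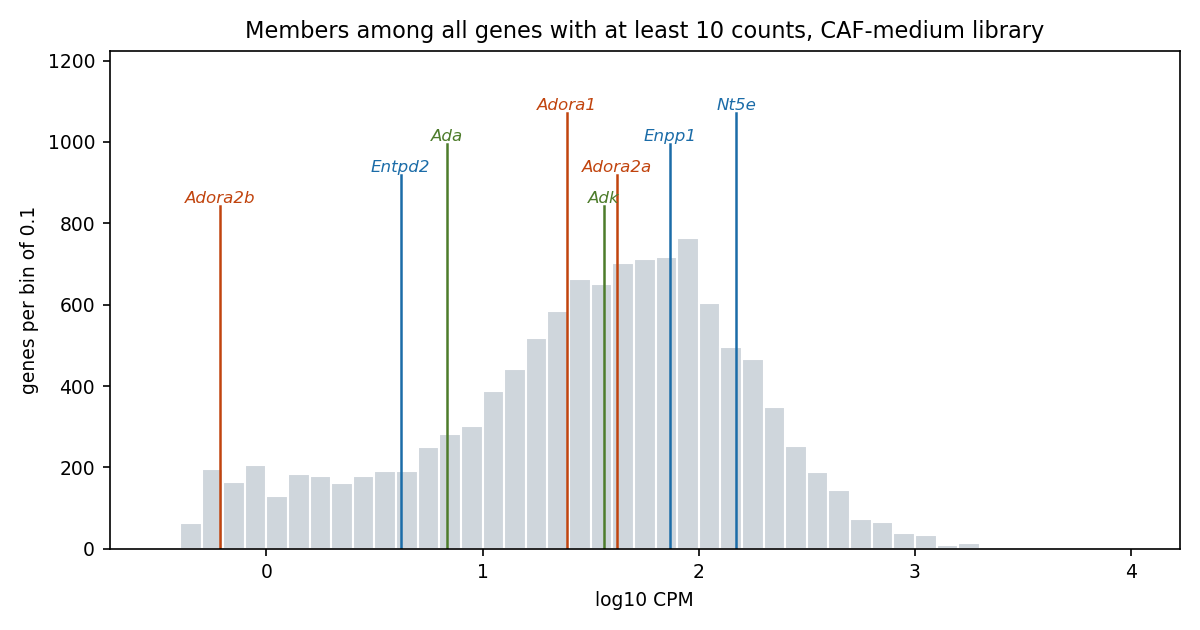
Histogram of log10 CPM over the 11569 genes with at least 10 counts, in bins of 0.1, with vertical lines at the 8 members among them (blue, surface enzymes, red, receptors, green, adenosine-using enzymes). Nt5e lies at the 84.6th percentile and Enpp1 at the 67.8th, Adora2a and Adk lie near the middle at the 52.4th and 48.9th, and Adora2b is at the lower edge.

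Upstream of these enzymes, the genes for proteins that let ATP or other nucleotides out of the cell were uneven. Of 15 in the table, 10 reached 10 counts (median 4.14 CPM), and 4 exceeded the median gene in CPM and 3 per kilobase. Abcc4, an exporter of cAMP and other organic anions, stood at 214 CPM (207 to 220) and the scramblase Ano6 at 203 CPM (197 to 209). Ank, which is needed for the release of ATP and pyrophosphate, stood at 167 CPM and was the highest of the list per kilobase, at 46.2 CPM. Slco2a1 stood at 88.4 CPM. The pannexin channel Panx1, the channel most often named for ATP release, had 15 counts, and the vesicular ATP transporter Slc17a9 had 16.

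Receptors for ATP and other nucleotides had a lower summed level than the adenosine receptors, whose sum was mostly Adora2a, while 4 P2X genes had more counts than Adora2b and Adora3. Of 7 P2X genes, 4 had at least 10 counts, led by P2rx4 at 16.2 CPM (14.5 to 18.0), P2rx3 at 9.87 CPM and P2rx2 at 2.68 CPM, and P2rx5 had 27 counts. P2rx7, the receptor for high ATP on immune cells, had 1 count, and P2rx1 and P2rx6 were listed at 0. Of 8 P2Y genes, P2ry2 and P2ry1 had 35 and 19 counts and the other 6 had at most 1 each. None of these 15 genes exceeded the median gene. Summed per kilobase, the 4 adenosine receptors stood at 18.2 CPM, the 7 P2X genes at 7.42 CPM and the 8 P2Y genes at 0.673 CPM. The adenosine receptors' sum was 2.45 times that of P2X and 27.0 times that of P2Y. Over the other 2 lengths the first ratio was 1.87 and 2.39, and the second 25.6 and 24.8.

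Enzymes that handle AMP, adenosine and related purines inside the cell were counted in a list of 24 genes. The list also holds the surface protein Dpp4 and genes taken in as relatives of such enzymes, such as Ahcyl1. Of the 24, 21 reached 10 counts (median 27.9 CPM), and 9 exceeded the median gene in CPM and 10 per kilobase. Ahcyl1, a relative of the enzyme that frees adenosine from S-adenosylhomocysteine, led at 347 CPM (339 to 355). Mtap, which salvages adenine from methylthioadenosine, stood at 184 CPM (178 to 190), the AMP deaminase Ampd2 at 147 CPM (142 to 152) and the cytosolic nucleotidase Nt5c2 at 93.4 CPM. Pnp2 had 5 counts, and Nt5c1b was listed at 0. Of the 7 nucleoside transporters, Slc29a1 stood at 29.5 CPM per kilobase, above all 10 members (though by coding length it stood at 85.7 and Nt5e at 86.3), Slc29a2 at 5.66 and Slc29a3 at 1.85, and Slc28a1, Slc28a2, Slc28a3 and Slc29a4 had 2 counts at most.

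Downstream of the receptors, 2 of 3 Gi genes and most protein kinase A subunits were above the median gene, and a single adenylyl cyclase held most of its family's counts. The Gs gene Gnas, through which both A2 receptors act, was below the median gene. Of 10 G protein alpha subunit genes, 7 reached 10 counts (median 86.4 CPM), and 4 exceeded the median gene. Gnai3 and Gnai2, the Gi subunits through which A1 and A3 act, stood at 575 CPM (565 to 585) and 257 CPM (251 to 264), or 176 and 68.1 CPM per kilobase. The other Gi gene, Gnai1, was lower, with 165 counts, or 7.76 CPM and 2.47 CPM per kilobase. Gnaq and Gna11, of the Gq class, stood at 123 and 86.4 CPM. Gnas stood at 16.2 CPM and 1.45 CPM per kilobase, and Gnal, also on the list, at 1.69 CPM. Gnao1, Gna14 and Gna15 had 5, 1 and 0 counts. Of 10 adenylyl cyclases, Adcy6, which Gi inhibits and Gs stimulates, stood at 180.4 CPM (175 to 186) and held 89.0% of the list's counts. Adcy9, Adcy7 and Adcy3 stood at 12.9, 5.27 and 2.44 CPM, and Adcy10, Adcy8, Adcy2 and Adcy4 had 5, 1, 0 and 0 counts.

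Of 14 genes for cAMP effectors, 13 reached 10 counts (median 98.4 CPM), and 8 exceeded the median gene in CPM and 7 per kilobase. The protein kinase A subunits Prkar1a, Prkacb and Prkar2a stood at 424, 235 and 224 CPM and the CREB coactivator Crtc2 at 177 CPM, while the subunit genes Prkar2b and Prkar1b were below the median gene, at 20.1 CPM and 2 counts. Of 16 phosphodiesterases that break down cAMP, 6 reached 10 counts (median 16.4 CPM), and 1 exceeded the median gene in CPM and 0 per kilobase. Pde7a led at 55.6 CPM, followed by Pde4a at 29.4 CPM, Pde4d at 21.3 CPM and Pde3b at 11.5 CPM.

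All 13 genes known to be induced by cAMP reached 10 counts, and the middle one of them stood at 21.3 CPM. The median gene was exceeded by 2 of them in CPM and by 4 per kilobase. Areg, a ligand of the EGF receptor, stood at 300.5 CPM (293 to 308), or 247 CPM per kilobase, and the clock gene Per1 at 138 CPM (134 to 144). Fosb and the kinase gene Sik1 stood at 37.0 and 35.2 CPM. Other signals also act on these genes, and a level in 1 library does not show which were active. Of 9 transcription factors known to act on the CD73, CD39 or A2B genes, all reached 10 counts (median 95.4 CPM). In CPM 7 exceeded the median gene, and per kilobase 5 did. Hif1a, of the hypoxia response, stood at 454 CPM (445 to 463), Smad3 at 245 CPM, Sp1 at 216 CPM and Arnt, the partner of Hif1a, at 190.5 CPM.

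**Figure D4:**
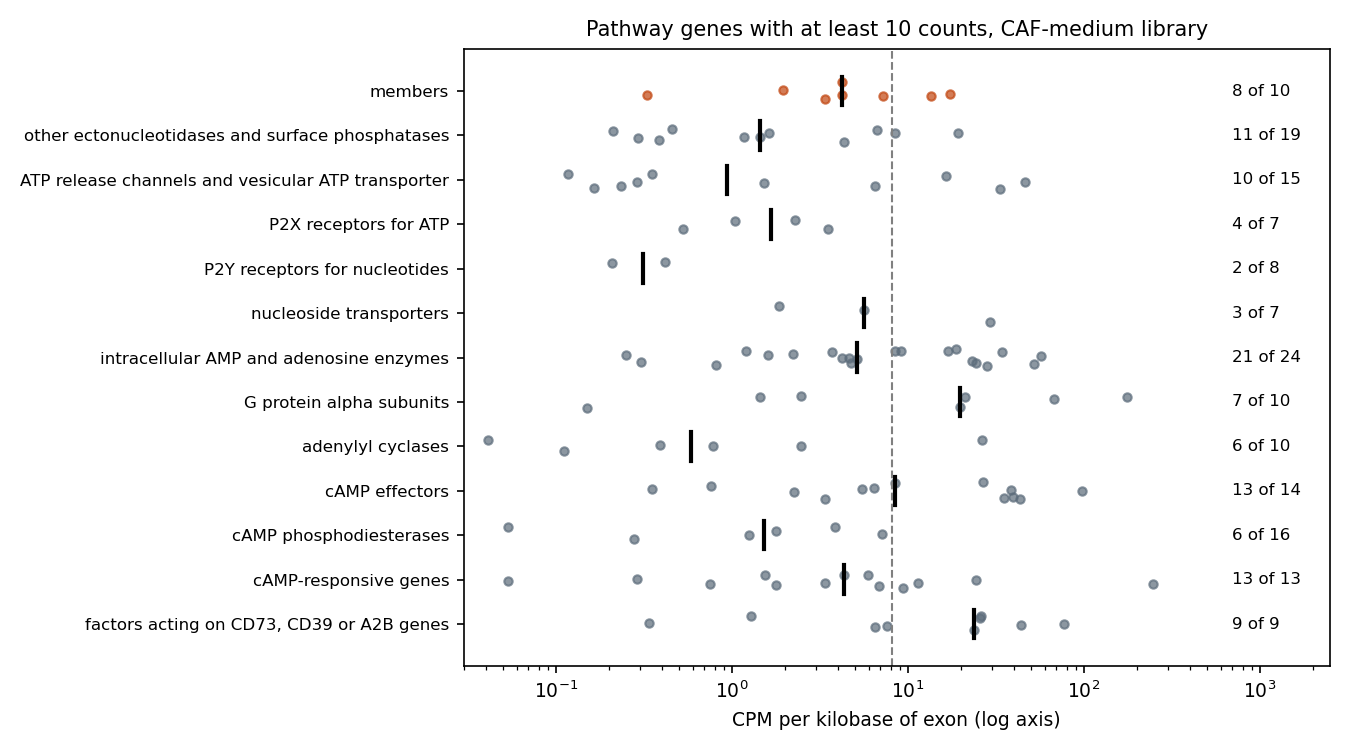
Each point is a gene with at least 10 counts, placed by its CPM per kilobase of exon on a log axis, with its list in rows and the 10 genes described here, marked members, in red. Black bars are medians of the points drawn in each row, and the dashed line is the median gene. The numbers at the right give the genes with at least 10 counts of those in the table. G protein subunits, cAMP effectors and the transcription factors have medians above the dashed line, and of the lists drawn the P2Y receptors and adenylyl cyclases have the lowest medians.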

How the data were processed

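RNA of 14837 cells kept 48 h in CAF medium was analysed, 1 library of 21269197 counts. The submitters' processing notes name the tools StringTie and HISAT2 (2.1.0) and the build mm10, without their roles. For the strand setting, the annotation and how reads became counts, nothing was found (not given in the sources used here). Values as deposited are whole-number counts per gene symbol made by the authors, not scaled to a fixed total. The table's other value column matched no library's labels, so 1 column was not used and the planned comparison of media was not made. There was no test between groups.

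Counts were divided by the library total to give CPM. Poisson and binomial 95% intervals are exact and were run on simulated Poisson counts, which checks the computation and not the spread of real counts. The intervals cover counting error only, since reads can be copies of 1 molecule. Among the 1789 counts from 10 to 99, 36.0% were multiples of 3, beside 33.3% of the whole numbers in that range. Whether the counts are plain read numbers was not tested, and intervals may be too narrow. Lengths, coordinates, exon overlap and shared windows (64-base stretches of the longest transcript, 1 every 16 bases, that an unrelated gene's transcript also holds letter for letter) came from GENCODE M21 of GRCm38, to which 99.6% of symbols matched. Exon overlap was counted on either strand, and sequence outside annotated transcripts was left unsearched. Coordinates are 1-based. Promoter windows are from RefSeq, without the 50 bases after the start.

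The members, the 16 other lists and the 10 pairs were chosen with earlier results of these data known. Named genes are all members, the 4 highest of each list by CPM with at least 10 counts (3 for cell type markers), and genes under 10 counts in lists with at most 4 of them. Alpl, Panx1, Slc17a9, Ptprc, Atp5a1, Uqcrc1, Ahcy, Entpd4, Gnai1, Gnas, Gnal, Prkar2b and the other markers near 0 were named after their values were seen. Other totals, minimums and lengths were tried. Coding length was taken from GENCODE in place of a protein table, as an alternative chosen after seeing the data, as were the other lengths for shares and sums. Software was matplotlib 3.10.9, pandas 2.3.3 and scipy 1.17.1, with numpy 2.4.6 under Python 3.11.15.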

Additional observations from a re-analysis of the deposited data

How the results depend on the processing

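None of the 10 pairs of members computed changed direction under the 3 gene lengths, but many changed in size, and outside those pairs Adk passed Enpp1 by coding length (33.5 against 27.2 CPM per kilobase). Each pair was set with the higher count first, and a gene listed at 0 could not become the higher one under any length. For pairs with such a gene, an unchanged direction is therefore no check. By longest transcript, Nt5e had 3.43 times the counts per kilobase of Enpp1 and 17.3 times those of Entpd2. Adk had 2.12 times those of Ada. With 3 counts put in place of a 0, Nt5e had 1117 times those of Entpd1 and Adora2b 5.57 times those of Adora3. By coding length the values were 3.18 for Nt5e over Enpp1, 30.6 for Nt5e over Entpd2, 2.58 for Nt5e over Adk, 5.19 for Adk over Ada, 1.35 for Adora2a over Adora1 and 40.9 for Adora1 over Adora2b. With 3 counts in place of a 0, the ratios by coding length were 32.3 for Entpd2 over Entpd1 and 4.16 for Adora2b over Adora3. The shares by coding length were 56.8% for Adora2a, 42.1% for Adora1, 74.2% for Nt5e and 23.4% for Enpp1, and by longest transcript 74.1% for Nt5e and 21.6% for Enpp1. These shifts follow from the lengths alone. Without the 100 highest genes in the total, the members summed to 389 CPM in place of 337, and Nt5e, Enpp1, Adora1, Adora2a and Adk moved outside their counting intervals. Without the genes of the mitochondrial genome, every member stayed within its counting interval. Each change of total scales all genes by a common factor. Whether a member left its interval therefore follows from that factor and its count alone, since larger counts have relatively narrower intervals. With no minimum, 7 members in place of 3 exceeded the median entry, since entries at 0 then count. With a minimum of 100 counts it was 2, and Adora2a fell from the 52.4th to the 43.7th percentile. The planned difference between media was not run, for want of a matched column, and the planned coding length from proteins was replaced. No paired analysis was possible because 1 library was used. The limit of 3 counts, or 0.141 CPM, for an entry at 0 concerns counting only. Since Atp5a1 and Uqcrc1 were also listed at 0, it does not bound the true level.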

Other observations

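Some genes of the route had values that other features of the table touch. Gnas encodes the Gs subunit through which both A2 receptors raise cAMP. It had 344 counts, or 16.2 CPM (14.5 to 18.0), under the median gene, beside 575 CPM for the Gi gene Gnai3. Exons of other genes, all on the opposite strand, overlap 22.0% of its exonic bases. It was picked out after its value was seen. Ahcy, which frees adenosine from S-adenosylhomocysteine, stood at 52.6 CPM, with 74.8% of its windows also found in other genes. Entpd4 was listed at 0, with 100% of its windows found in Entpd4b, which was listed at 0 as well.

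P2rx3, best known as a subunit of ATP receptors on sensory neurons, had 210 counts, or 9.87 CPM (8.58 to 11.3), more than the 1 count of P2rx7. Per kilobase of exon it stood at 3.54 CPM, beside 2.30 CPM for P2rx4. By longest transcript the values were 5.45 and 4.15, and by coding length 8.29 and 13.9, and coding length alone of the 3 puts P2rx4 higher.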
